A study of Drosophila melanogaster with 9 samples.

Results

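The genes of oxidative phosphorylation were followed in the dissected central nervous system (CNS) of 1st instar Drosophila melanogaster larvae. They were taken by name: every gene of the table whose FlyBase symbol begins with ND-, Sdh, UQCR-, COX, ATPsyn, mt:ND, mt:Co, mt:Cyt-b or mt:ATPase. This gave 101 of the 17421 genes. Of these, 63 are nuclear-encoded subunits, 13 are encoded by mitochondrial DNA, 24 are nuclear paralogs whose symbols end in L, with or without a number, and 1, Sdhaf3, is an assembly factor. By complex there were 47 genes of complex I, 8 of complex II, 10 of complex III, 19 of complex IV and 17 of complex V. The choice used names and no measured value.

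Oxidative phosphorylation is the route by which mitochondria make most of the ATP of neurons. Complex I (NADH dehydrogenase) and complex II (succinate dehydrogenase) pass electrons to ubiquinone, complex III (the cytochrome bc1 complex) passes them to cytochrome c, and complex IV (cytochrome c oxidase) passes them to oxygen. The proton gradient made on the way drives complex V, the ATP synthase. All of the complexes but complex II are mosaics of nuclear-encoded and mitochondrially encoded subunits, so their assembly needs products of both genomes.

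The first genotype, elav5/fne, is a double mutant of elav and fne, the second, elav5, is mutant for elav alone, and Canton-S is a wild-type strain. The products of elav and fne belong to the ELAV/Hu family of neuronal RNA-binding proteins, known for their part in alternative splicing and in the use of distal poly(A) sites. elav5 is a mutant allele of elav that both mutants carry, and the allele of fne is named in the labels by the gene alone. Larvae of all genotypes were kept at 25 °C and picked by hand as viable homozygotes with the help of a visible marker. Each genotype had 3 libraries, made from 40 ng of total RNA with a kit that reads transcripts from their 3' ends. The labels give neither the larvae's sex nor the strain in which the mutations were held, so genetic background and genotype cannot be told apart. No library of fne mutants with wild-type elav was analysed here. Nothing in the labels says that libraries of 1 genotype came from separate dissections, so the p-values rest on a spread between samples that may be technical.

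Libraries held 15241461 to 18822734 reads assigned to genes, and the genes followed here took 2.87% to 3.49% of the reads. Levels are in normalised CPM (the deposited size-factor-scaled values, rescaled so that the 9 libraries average 1000000), in which 3 reads correspond to 0.150 to 0.196. Libraries are always given in the order 1, 2, 3. elav stood at 30.4, 71.3 and 34.2 normalised CPM in elav5/fne and 33.1, 39.4 and 21.1 in elav5, against 1582, 1630.1 and 1717 in Canton-S. fne stood at 325, 522 and 278 in elav5/fne and 4545, 4595 and 4947 in elav5, against 4422, 5453 and 5248 in Canton-S. A list of 9 neuron marker genes summed to 3192 to 4077 normalised CPM in elav5/fne, 9729.6 to 10476 in elav5 and 10421 to 11483 in Canton-S, and all 9 were called lower in elav5/fne than in Canton-S. However, fne itself is among these 9. Its call follows from the genotype, and its loss makes up a large part of the fall in the sum. A list of 8 neuroblast genes summed to 599 to 725, 223 to 330.4 and 304 to 346 in the same order, and 7 of them were called higher. In such bulk samples fewer cells of a type and less RNA per cell cannot be told apart. Markers of body wall muscle, a tissue outside the CNS that is rich in mitochondria, summed to 2689.7, 5414 and 9985 in elav5/fne, 8895, 2966 and 1404 in elav5 and 1656, 1698 and 1522 in Canton-S. All elav5/fne libraries lay above all Canton-S libraries. Of 15 muscle genes tested, 6 were called higher in elav5/fne against Canton-S, beside 25.8% of all genes tested. The highest sums were those of elav5/fne library 3 and elav5 library 1. The same libraries were the highest of their genotypes in midgut markers, which summed to 43.6, 404 and 1376 in elav5/fne, 804, 16.8 and 39.6 in elav5 and 78.8, 21.9 and 27.3 in Canton-S. They were also the highest in markers of trachea and epidermis, which summed to 69.2, 87.8 and 154 in elav5/fne, 112, 62.6 and 42.6 in elav5 and 43.1, 56.7 and 33.7 in Canton-S. Fat body markers summed to 267, 608.5 and 234 in Canton-S, so Canton-S library 2 stands apart in this tissue. Their mean log2(normalised CPM + 1) was 5.13 in that library and 0.949 to 1.59 in the others. The part of these tissues in the results was not tested, other than by leaving libraries out and by a muscle covariate.

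Fold changes are log2 differences of log2(normalised CPM + 1), a scale that compresses the change of low genes, from 1 limma fit over all 9 libraries. A gene was tested where its mean was at least 1 normalised CPM and was called at a Benjamini-Hochberg adjusted p under 0.05 over all 9384 genes tested. Of the 101 genes, 79 passed this filter: 61 of the 63 nuclear subunits, all 13 mitochondrially encoded genes, 4 of the 24 paralogs, and Sdhaf3. The 22 others had a mean of at most 0.516 normalised CPM, and their highest value in a library was 1.64. The 2 nuclear subunits among them were ND-B8, with a mean of 0.320, and ND-MNLL, with no read in any library.

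In elav5/fne against Canton-S, 12 of the 79 genes were lower, all of them nuclear, and 4 were higher, all of them encoded by mitochondrial DNA. Over all genes tested 43.2% were called in that comparison, 25.8% higher and 17.5% lower, and 52.2% had an unadjusted p under 0.05, so the 16 calls, 20.3% of the 79, are a smaller share than the background. For elav5 against Canton-S, 8 of the 79 were higher and 2 lower, beside a background of 15.2% called, 8.17% higher and 7.04% lower. For elav5/fne against elav5, 1 was higher and 20 were lower, beside a background of 30.8% called, 18.5% higher and 12.3% lower. The comparisons share libraries, so they are not independent of each other. Single libraries moved these counts by 1.5 times or more. For elav5/fne against Canton-S the lower count was 8 without Canton-S library 1 and 20 without elav5/fne library 3, and the higher count was 2 without elav5/fne library 1 or 2 or Canton-S library 1. For elav5 against Canton-S the higher count was 3 without elav5 library 1, 5 without elav5 library 3, 3 without Canton-S library 1, 2 without Canton-S library 2 and 4 without Canton-S library 3. The lower count there was 0 without elav5 library 1 or 2 or Canton-S library 1 or 2, and 1 without elav5/fne library 2 or Canton-S library 3. Between the mutants the lower count was 10 without elav5/fne library 1, 11 without elav5/fne library 2 and 12 without elav5 library 3.

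Among the 61 nuclear subunits tested the shift in elav5/fne was small and broad. Against Canton-S, 53 had a negative log2 fold change and 8 a positive one. Their median was -0.19, with a range of -0.82 to 0.27, while the median of all genes tested was 0.15. Of the 61, 11 (18.0%) were called lower, close to the 17.5% of all genes tested. None of the 61 was called higher, beside 25.8% of all genes, and 50 did not pass the test. At an unadjusted p under 0.05 limma had 21 lower and 1 higher, beside 52.2% of all genes tested in either direction. edgeR called 11 lower and 0 higher and DESeq2 18 lower and 1 higher, beside 1577 and 1715 lower of all 9384 genes tested. All 3 elav5/fne libraries lay below all 3 Canton-S libraries for 22 of the 61, beside 23.7% of all genes tested, and above them for 1, beside 34.6%. The median of the same 61 in elav5 against Canton-S was 0.04, with 3 called higher and 2 lower, while all genes had a median of 0.02. Those calls were 8.20% of the 61, beside 15.2% of all genes tested. In elav5/fne against elav5, 58 of the 61 were negative and the median was -0.26, with 16 called lower and none higher by limma, while all genes had a median of 0.15. Those called lower were 26.2% of the 61, beside 12.3% of all genes tested. In this last comparison 27 of the 61 were lower and none higher at an unadjusted p under 0.05, beside 41.3% of all genes tested in either direction. edgeR and DESeq2 called 14 and 23 of the 61 lower and none higher, beside 1091 and 1244 lower of all 9384 genes tested. The elav5/fne libraries lay below the elav5 libraries for 24 of the 61, beside 17.0% of all genes tested, and above them for 1, beside 26.8%.

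The number of calls depended on the scaling between libraries. TMM scaling moved the median of all genes in elav5/fne against Canton-S to 0.02 and the counts over all genes to 2051 higher and 2159 lower, against 2418 and 1638 with the deposited scaling. Under TMM, 31 of the 79 members were lower and 3 higher. Relative to the median of all genes the nuclear subunits stood at -0.34 with the deposited scaling and -0.36 under TMM. In elav5 against Canton-S, scaling to the library total moved the median of all genes to -0.12 and gave 4 members higher and 2 lower, and the median of the nuclear subunits was then -0.11, so its sign is not fixed.

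**Figure D1:**
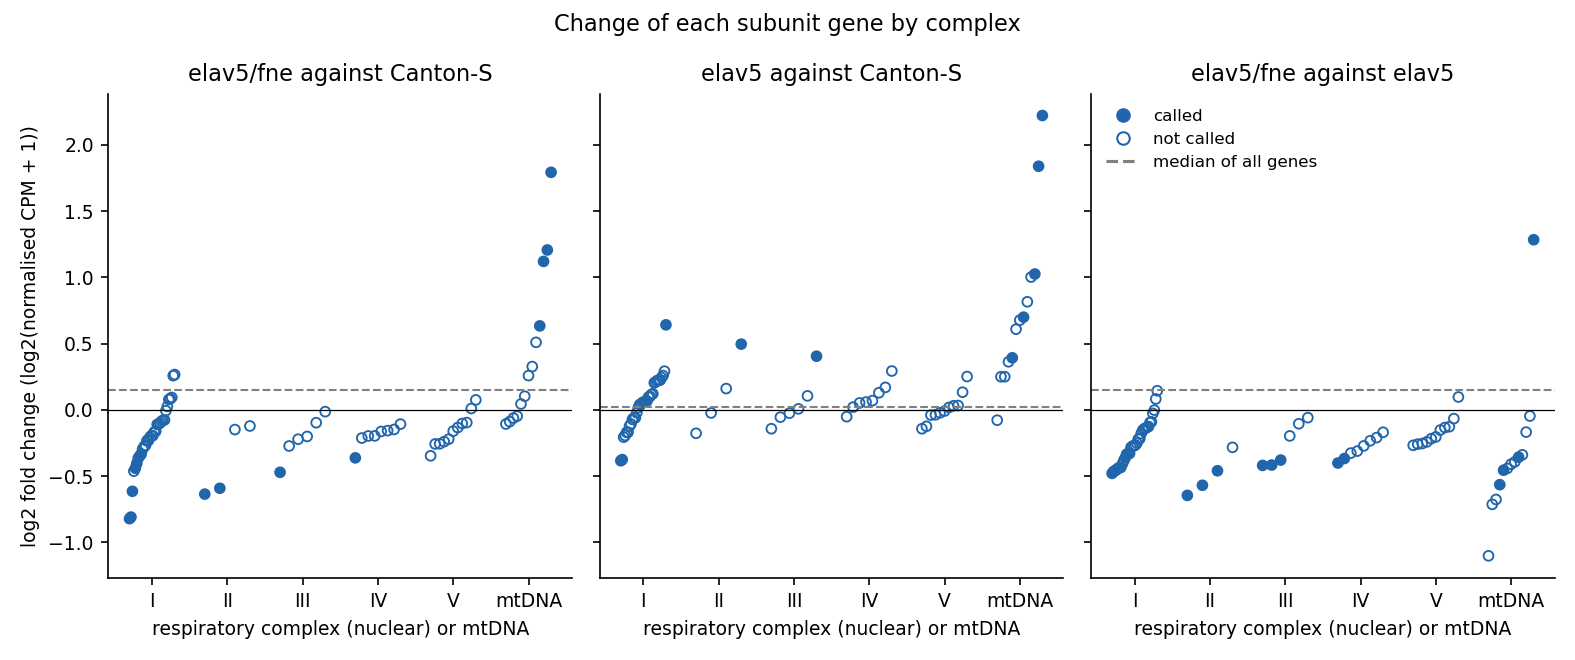
Log2 fold change (log2(normalised CPM + 1) scale, vertical axis) of each tested subunit gene, with nuclear-encoded genes placed by respiratory complex and mitochondrially encoded genes (mtDNA) in a column of their own, for elav5/fne against Canton-S, elav5 against Canton-S and elav5/fne against elav5. Each point is 1 gene, ordered by value within its column; filled points were called, the dashed line is the median of all genes tested, and the paralogs and Sdhaf3 are not drawn. Nuclear genes lie mostly below 0 in both panels with elav5/fne, and mitochondrially encoded genes reach 1.79 in elav5/fne and 2.22 in elav5 against Canton-S.

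Among the members, the mitochondrially encoded genes held the largest rises. They code for core subunits: 7 of complex I, 1 of complex III, 3 of complex IV and 2 of complex V. In the Ensembl annotation of the mitochondrial genome (build dm6) mt:ATPase8 (3907 to 4068), mt:ATPase6 (4062 to 4736) and mt:CoIII (4736 to 5524) follow each other on the plus strand with overlapping ends. In flies mt:ATPase8 and mt:ATPase6 are carried by 1 shared messenger RNA, as are mt:ND4L and mt:ND4, so a read from the 3' end of such an RNA falls in or near the downstream gene.

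mt:ATPase6, which codes for the subunit a that forms the proton channel of ATP synthase, was higher in elav5/fne than in either other genotype. It had 5566, 6277 and 6424 normalised CPM in elav5/fne and 2668, 2034 and 2858 in elav5, against 2733, 2497 and 2669.5 in Canton-S. The 3 elav5/fne libraries were all above the other 6, and elav5 overlapped Canton-S. The difference was called in elav5/fne against Canton-S (log2 fold change 1.21, SE 0.13, limma adjusted p = 7.74e-05) and in elav5/fne against elav5 (log2 fold change 1.28, SE 0.13, limma adjusted p = 8.69e-05). It was not called in elav5 against Canton-S (log2 fold change -0.08, SE 0.13, limma adjusted p = 0.716), and the 95% interval of that difference was -0.37 to 0.22. Both calls held under every one of the 22 other settings tried, with values of 1.06 to 1.27 and of 1.14 to 1.38 on the log2 scale.

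The genes on either side of the pair were not called in elav5/fne against Canton-S. mt:CoIII, a core subunit of cytochrome c oxidase, had 3481, 3768 and 2933 normalised CPM in elav5/fne and 4864, 4071 and 6284 in elav5, against 2626, 3816 and 3497 in Canton-S, so elav5/fne and Canton-S overlapped. Its log2 fold change in elav5/fne against Canton-S was 0.04 (95% interval -0.38 to 0.47, limma adjusted p = 0.859). mt:CoII, which binds cytochrome c and lies upstream of the pair, had 3380.1, 3516 and 3319.7 in elav5/fne, 4555, 3850.4 and 4726 in elav5 and 3798, 3558 and 3642 in Canton-S. Its elav5/fne libraries lay just below Canton-S (log2 fold change -0.11, SE 0.10, limma adjusted p = 0.400). The ratio of mt:ATPase6 to mt:CoII within a library was 1.65, 1.79 and 1.94 in elav5/fne and 0.586, 0.528 and 0.605 in elav5, against 0.720, 0.702 and 0.733 in Canton-S. This ratio does not depend on the scaling between libraries, and its 3 groups did not overlap: elav5/fne was highest and elav5 lowest. mt:ATPase6 made up 28.4% to 33.5% of the reads on the 13 mitochondrially encoded genes in elav5/fne, 11.4% to 12.1% in elav5 and 14.04% to 17.3% in Canton-S.

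mt:ATPase8, whose product is a small membrane subunit of the ATP synthase, was low in every library and was called higher in both mutants. It had 13.1, 15.0 and 6.09 normalised CPM in elav5/fne and 10.8, 6.07 and 20.1 in elav5, against 1.35, 2.47 and 3.71 in Canton-S. Every mutant library was above every Canton-S library, and the mutants overlapped. The call in elav5/fne against Canton-S (log2 fold change 1.79, SE 0.45, limma adjusted p = 0.00992) held without each single library. The call in elav5 against Canton-S (log2 fold change 1.84, SE 0.45, limma adjusted p = 0.0246) was lost without elav5 library 3, or Canton-S library 1 or 2 (log2 1.44 to 1.86, limma adjusted p = 0.0618 to 0.0950). The end of mt:ATPase8 overlaps the start of mt:ATPase6, and how reads of overlapping genes were shared out in the authors' counting is not stated in the labels.

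**Figure D2:**
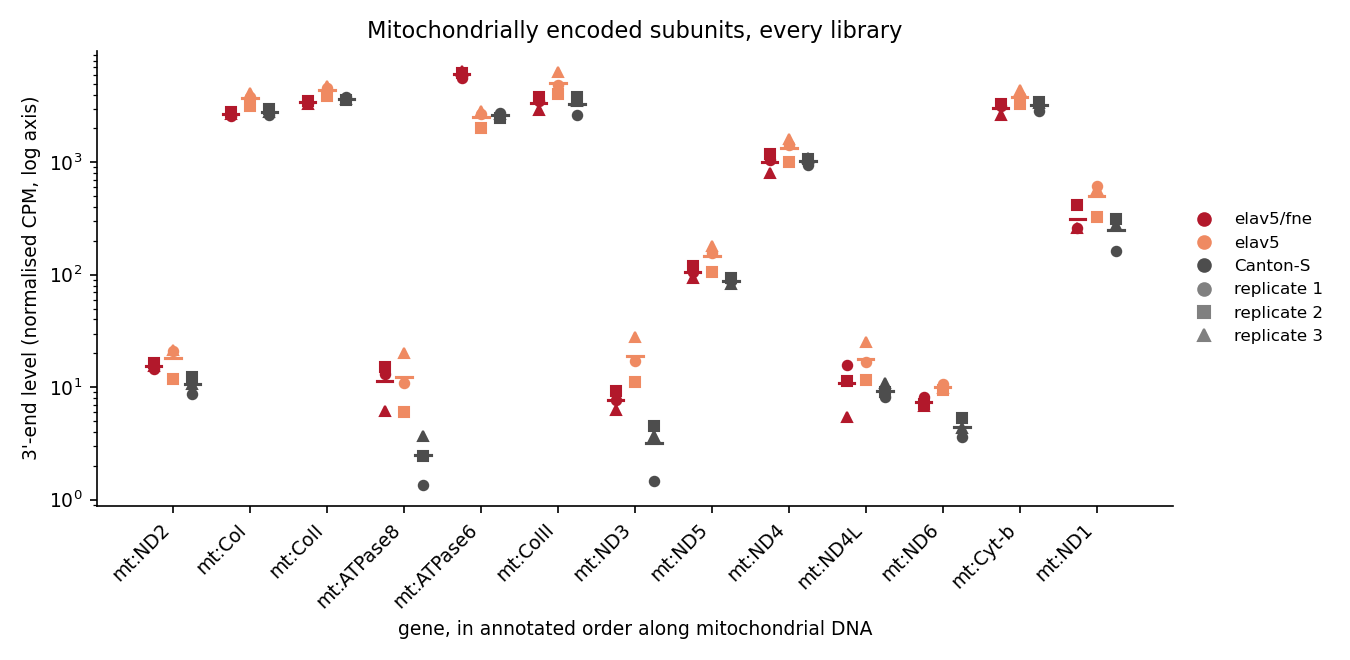
Level of the 13 mitochondrially encoded subunit genes (normalised CPM, log axis) in every library, in their annotated order along mitochondrial DNA, with elav5/fne, elav5 and Canton-S side by side for each gene. Points are single libraries (circle, square and triangle for replicates 1, 2 and 3) and bars are group means; mt:ATPase6 is the gene at which the 3 elav5/fne libraries, at 5566 to 6424, stand clear above the other 6, at 2034 to 2858.

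In elav5 against Canton-S, 12 of the 13 mitochondrially encoded genes had a positive log2 fold change, with a median of 0.68 over the 13 beside 0.02 over all genes. Limma called 5 of the 13, all higher: mt:ND3, mt:ND5, mt:ND6, mt:CoI and mt:ATPase8. Over all genes tested limma called 8.17% higher. At an unadjusted p under 0.05 limma had 10 higher, beside 30.9% of all genes tested in either direction. edgeR called 5 and DESeq2 9 of the 13 higher. Over all 9384 genes tested, edgeR called 788 and DESeq2 1306 higher, where limma called 767. The libraries of the groups did not overlap for 9 of the 13, beside a background of 18.1% of all genes tested. mt:ND3, a membrane subunit of complex I, had 7.66, 9.20 and 6.28 normalised CPM in elav5/fne and 17.1, 11.03 and 28.2 in elav5, against 1.45, 4.48 and 3.65 in Canton-S, with all 3 groups apart. It was called in elav5 (log2 fold change 2.22, SE 0.38, limma adjusted p = 0.00533) in every fit that left out 1 library. In elav5/fne it was called as well (log2 fold change 1.12, SE 0.38, limma adjusted p = 0.0359), but the call was lost without elav5/fne library 1 or 2, or Canton-S library 1 or 3 (log2 0.77 to 1.24, limma adjusted p = 0.0568 to 0.123).

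mt:ND6, another membrane subunit of complex I, had 8.16, 7.16 and 6.79 normalised CPM in elav5/fne and 10.7, 9.40 and 9.75 in elav5, against 3.61, 5.28 and 4.37 in Canton-S. The 3 groups did not overlap. It was called in elav5 (log2 fold change 1.03, SE 0.19, limma adjusted p = 0.00697), also without each single library, and in elav5/fne (log2 fold change 0.63, SE 0.19, limma adjusted p = 0.0201), where the call was lost without elav5/fne library 1 or 2, or Canton-S library 1 (log2 0.52 to 0.65, limma adjusted p = 0.0522 to 0.0694). mt:ND5, a proton-pumping subunit, had 106, 119 and 93.2 in elav5/fne and 156, 106 and 179 in elav5, against 88.4, 93.8 and 82.3 in Canton-S. It was called in elav5 (log2 fold change 0.70, SE 0.18, limma adjusted p = 0.0303), a call lost without elav5 library 1 or 3, or Canton-S library 1, 2 or 3 (log2 0.54 to 0.75, limma adjusted p = 0.0717 to 0.0904). mt:CoI, the catalytic subunit of cytochrome c oxidase, had 2599, 2784 and 2659 in elav5/fne and 3773, 3179 and 4132 in elav5, against 2633, 2954 and 2810.1 in Canton-S. Each elav5 library was above all others, yet the call in elav5 (log2 fold change 0.39, SE 0.11, limma adjusted p = 0.0377) was lost without elav5/fne library 1 or 2, elav5 library 1 or 3, or Canton-S library 1, 2 or 3 (log2 0.31 to 0.43, limma adjusted p = 0.0607 to 0.138).

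Of the others, mt:ND1, mt:ND2, mt:ND4, mt:ND4L, mt:Cyt-b, mt:CoII and mt:CoIII were called by limma in neither mutant against Canton-S. DESeq2 called mt:ND1, mt:ND2, mt:CoII and mt:CoIII higher in elav5 (DESeq2 adjusted p = 0.00262, 0.0345, 0.0302 and 0.00505), and limma did so for these 4 without elav5 library 2 (limma adjusted p = 0.0266, 0.0148, 0.0206 and 0.0330). Without that library mt:ND2 was also called in elav5/fne (limma adjusted p = 0.0338). mt:ND1 had 261, 418 and 258 normalised CPM in elav5/fne and 614, 326 and 576 in elav5, against 164, 312 and 278 in Canton-S, and its elav5 value missed the threshold (log2 fold change 1.00, SE 0.31, limma adjusted p = 0.0578). mt:ND4 had 1045, 1175 and 807 in elav5/fne and 1411, 1015 and 1623 in elav5, against 938, 1069 and 1089 in Canton-S (log2 -0.05, limma adjusted p = 0.854 for elav5/fne and log2 0.36, limma adjusted p = 0.215 for elav5). mt:Cyt-b, the only mitochondrially encoded subunit of complex III, had 3135, 3293 and 2645 in elav5/fne and 3849, 3281 and 4376 in elav5, against 2839, 3454 and 3347 in Canton-S (log2 -0.09, limma adjusted p = 0.620 and log2 0.25, limma adjusted p = 0.241). mt:ND4 and mt:Cyt-b overlapped between all groups, and mt:ND1 lay above Canton-S in all 3 elav5 libraries. mt:ND2 stood at 15.4 ± 0.945, 18.0 ± 5.43 and 10.6 ± 1.86 in elav5/fne, elav5 and Canton-S (mean ± SD, n = 3 each), and mt:ND4L at 10.9 ± 5.23, 17.9 ± 6.75 and 9.34 ± 1.42. mt:CoII and mt:CoIII, given above, had log2 fold changes of 0.25 and 0.61 in elav5 (limma adjusted p = 0.114 and 0.0574).

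The elav5 libraries themselves were spread widely in mitochondrial RNA. All genes of the mitochondrial genome, ribosomal RNA included, took 4.12% to 5.49% of reads in elav5/fne, 5.16% to 9.65% in elav5 and 3.59% to 5.12% in Canton-S. The large ribosomal RNA, mt:lrRNA, which is no member, had 22919, 31798 and 19128 normalised CPM in elav5/fne and 46592, 32715 and 76375 in elav5, against 16229, 28924 and 27319 in Canton-S (log2 1.06, limma adjusted p = 0.0605 for elav5 against Canton-S). elav5 library 3, the highest in mt:lrRNA, was also the highest elav5 library for mt:CoIII, mt:ND3, mt:ND5 and mt:ATPase8, and it had the lowest muscle marker sum of its genotype. The part of these differences in the results was not tested.

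Summed over genes, the mitochondrial side shows the weight of mt:ATPase6. The 12 other mitochondrially encoded genes summed to 14067, 15132 and 12756 normalised CPM in elav5/fne and 19299.5, 15878 and 22001 in elav5, against 13109, 15291 and 14779 in Canton-S. The elav5/fne libraries overlapped Canton-S, and the elav5 libraries were all above both other genotypes. With mt:ATPase6 included the sums were 19633, 21409 and 19179 in elav5/fne and 21968, 17912 and 24859 in elav5, against 15843, 17788 and 17449 in Canton-S, where both mutants lay above Canton-S. The nuclear-encoded members summed to 9727, 10518 and 11763 in elav5/fne and 13395, 11413 and 13223 in elav5, against 12865, 12638 and 11712 in Canton-S. The mean in elav5/fne was 0.860 times that in Canton-S, and the groups overlapped.

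**Figure D3:**
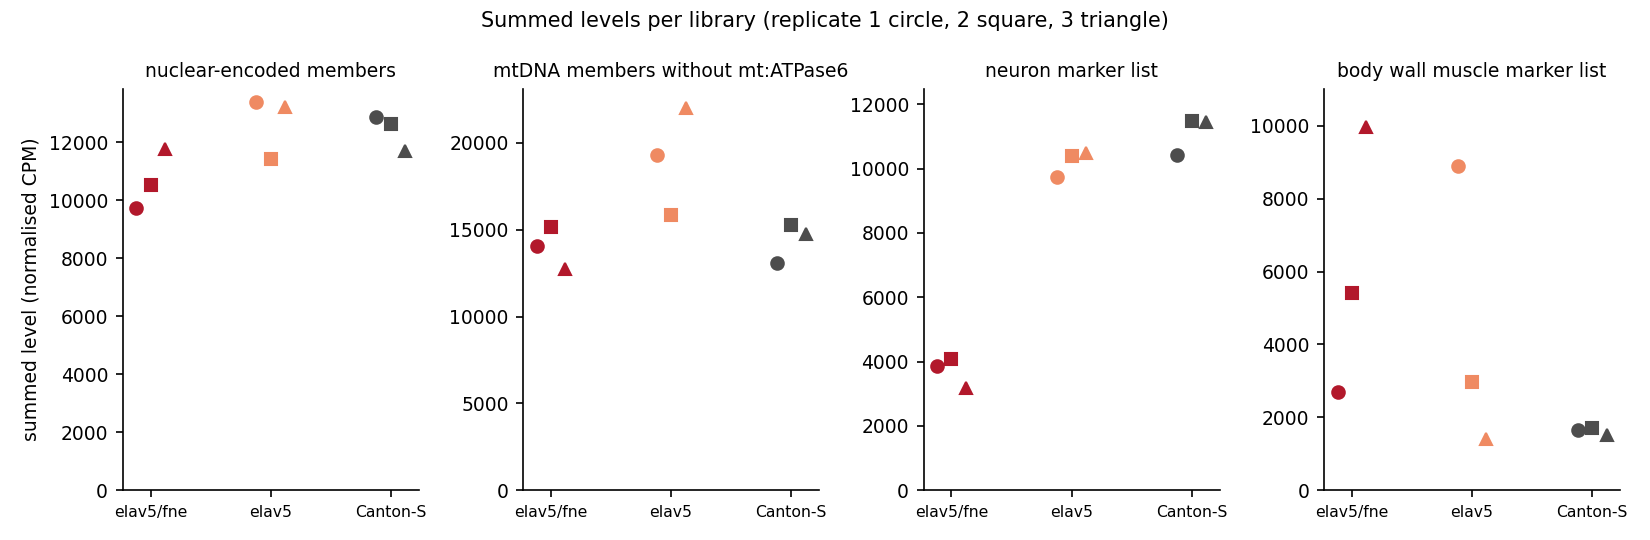
Summed level per library (normalised CPM, vertical axes from 0) of the nuclear-encoded members, of the mitochondrially encoded members without mt:ATPase6, and of the neuron and body wall muscle marker lists, with elav5/fne, elav5 and Canton-S from left to right. Each point is 1 library. The neuron list, which includes fne itself, stands at 3192 to 4077 in elav5/fne. The muscle list spreads from 2689.7 to 9985 in elav5/fne and from 1404 to 8895 in elav5, and the nuclear members overlap between genotypes.

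Complex I, the entry point for electrons from NADH and the largest complex of the chain, had 32 nuclear subunits tested. Of these, 7 were lower and 25 did not pass the test in elav5/fne against Canton-S, with a median log2 fold change of -0.19. Those called lower were 21.9% of the 32, near the 17.5% of all genes tested. None of the 32 was higher by limma or edgeR, and 1 was at an unadjusted p under 0.05 and by DESeq2. The 7 were ND-15, ND-B14, ND-30, ND-AGGG, ND-42, ND-49 and ND-51. In elav5 against Canton-S, ND-15 and ND-B14 were lower and ND-B14.5A was higher, and the median was 0.06. The nuclear members of complex I summed to 2907, 3129.5 and 3595 normalised CPM in elav5/fne and 3984, 3500.3 and 3929.9 in elav5, against 3899, 3862 and 3604 in Canton-S, and all 3 elav5/fne libraries lay below Canton-S.

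ND-15 and ND-B14, a pair of accessory subunits, had the largest falls among the nuclear subunits and were graded over the genotypes. ND-15 (chromosome 2L, 114726 to 156030, plus strand, dm6) had 103, 104 and 109 normalised CPM in elav5/fne and 137, 135 and 158 in elav5, against 193, 193 and 176 in Canton-S. ND-B14 (chromosome 2R, 10897144 to 10897885, minus strand) had 102, 109 and 123 in elav5/fne and 146, 145 and 159 in elav5, against 199, 199.98 and 185 in Canton-S. For both genes the 3 genotypes did not overlap, with elav5/fne lowest and Canton-S highest. In elav5/fne against Canton-S the values were log2 fold change -0.82, SE 0.09, limma adjusted p = 0.000108, for ND-15, and log2 fold change -0.81, SE 0.10, limma adjusted p = 0.000140, for ND-B14, and both held under every other setting tried.

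Their smaller differences in elav5 against Canton-S passed the test (log2 fold change -0.38, SE 0.09, limma adjusted p = 0.0246, for ND-15; log2 fold change -0.38, SE 0.10, limma adjusted p = 0.0303, for ND-B14). That of ND-15 was lost without elav5 library 1 or 2, or Canton-S library 1 or 2 (log2 -0.36 to -0.34, limma adjusted p = 0.0649 to 0.0898). That of ND-B14 was lost without elav5/fne library 2, elav5 library 1 or 2, or Canton-S library 1, 2 or 3 (log2 -0.41 to -0.35, limma adjusted p = 0.0510 to 0.102). The difference between the mutants passed for both as well (log2 -0.44, limma adjusted p = 0.00653 and log2 -0.43, limma adjusted p = 0.00803), also without each single library. The annotated span of ND-15 contains other genes on the same strand, among them Gs1, a glutamine synthetase gene, whose log2 fold change in elav5/fne against Canton-S was -1.88 (limma adjusted p = 0.000805). How much of its signal, at a mean of 32.3 normalised CPM in elav5/fne and 112 in Canton-S, could be counted in ND-15 was not tested.

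ND-30, a core subunit of the arm of complex I that faces the matrix, had 75.8, 82.5 and 97.8 normalised CPM in elav5/fne and 130.1, 95.2 and 117 in elav5, against 137, 137 and 118 in Canton-S. The elav5/fne libraries were all below Canton-S, and elav5 overlapped Canton-S. It was called in elav5/fne (log2 fold change -0.61, SE 0.14, limma adjusted p = 0.00630). ND-AGGG, an accessory subunit, had 164, 192 and 194 in elav5/fne and 221, 227 and 246 in elav5, against 270.2, 239 and 239 in Canton-S, and was called in elav5/fne (log2 fold change -0.44, SE 0.10, limma adjusted p = 0.00583). Both calls held without each single library.

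The other 3 calls fall outside the rule for named genes and were picked after their values were seen. ND-49, a core subunit close to the site where ubiquinone binds, stood at 118 ± 13.5 in elav5/fne against 155 ± 1.73 in Canton-S (mean ± SD, n = 3 each; log2 -0.40, limma adjusted p = 0.00876), and this call held without each single library. ND-51, which carries the NADH binding site, had 104, 111 and 119.7 normalised CPM in elav5/fne and 140.1, 126 and 138 in elav5, against 148, 133 and 139.8 in Canton-S (log2 -0.33, limma adjusted p = 0.0174), a call lost without elav5/fne library 1 or 2, or Canton-S library 1 (log2 -0.33 to -0.28, limma adjusted p = 0.0527 to 0.0660). ND-42, an accessory subunit, stood at 104 ± 5.48 in elav5/fne against 133 ± 8.45 in Canton-S (mean ± SD, n = 3 each; log2 -0.35, limma adjusted p = 0.0225), a call lost without elav5/fne library 1 or 2, or Canton-S library 1 or 2 (log2 -0.33 to -0.31, limma adjusted p = 0.0629 to 0.0794).

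ND-B14.5A, an accessory subunit, went the other way in elav5, with 20.0, 20.9 and 17.1 normalised CPM in elav5/fne and 28.2, 24.2 and 24.1 in elav5, against 12.6, 17.3 and 18.5 in Canton-S. The elav5 libraries were above all others (log2 fold change 0.64, SE 0.17, limma adjusted p = 0.0319), and the call was lost without elav5 library 1 or 2, or Canton-S library 1 or 2 (log2 0.49 to 0.70, limma adjusted p = 0.0597 to 0.102). ND-39, among the complex I genes with the highest levels, had 190.1, 208 and 279 in elav5/fne and 253, 215 and 215 in elav5, against 245, 238 and 232 in Canton-S, which overlapped (log2 -0.10, limma adjusted p = 0.592 in elav5/fne). Its highest value, in elav5/fne library 3, came from the library with the highest muscle marker sum.

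Complex II is the only complex with no mitochondrially encoded subunit, and it also serves the citric acid cycle. Of its 4 subunits, 2 were called lower in elav5/fne and 1 higher in elav5, each against Canton-S. Over all genes tested 17.5% were lower in elav5/fne and 8.17% higher in elav5. SdhA, the flavoprotein that oxidises succinate (chromosome 2R, 19391863 to 19395971, minus strand), had 138, 142 and 154 normalised CPM in elav5/fne and 221, 205 and 218 in elav5, against 215, 210.2 and 229 in Canton-S. The elav5/fne libraries were all below the other 6, which overlapped. It was called in elav5/fne against Canton-S (log2 fold change -0.59, SE 0.08, limma adjusted p = 0.000411) and not in elav5 (log2 -0.02, 95% interval -0.21 to 0.17, limma adjusted p = 0.874).

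SdhD, a membrane anchor (chromosome 3R, 23759483 to 23760600, minus strand), had 56.9, 60.8 and 74.0 normalised CPM in elav5/fne and 89.2, 81.9 and 92.2 in elav5, against 96.6, 105 and 96.0 in Canton-S, with no overlap between the 3 genotypes. It was called in elav5/fne (log2 fold change -0.64, SE 0.12, limma adjusted p = 0.00177), and the smaller difference of elav5 did not pass (log2 fold change -0.18, SE 0.12, limma adjusted p = 0.333). Both calls of complex II in elav5/fne against Canton-S held under every other setting tried.

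SdhB, the iron-sulfur subunit, was instead raised in elav5. It had 47.3, 55.5 and 53.4 normalised CPM in elav5/fne and 87.5, 73.0 and 85.7 in elav5, against 62.3, 54.5 and 56.6 in Canton-S. Every elav5 library was above the other 6, while elav5/fne and Canton-S overlapped (log2 -0.15, 95% interval -0.40 to 0.11, limma adjusted p = 0.317). The call in elav5 (log2 fold change 0.50, SE 0.11, limma adjusted p = 0.0193) was lost without elav5 library 1, or Canton-S library 2 or 3 (log2 0.45 to 0.48, limma adjusted p = 0.0567 to 0.0724). SdhC, the other membrane anchor, had 105, 102 and 121 in elav5/fne and 146, 105 and 152 in elav5, against 129, 114 and 113 in Canton-S and passed no test. The assembly factor Sdhaf3 was low, at 4.07 ± 1.27, 3.68 ± 1.02 and 4.63 ± 0.976 in elav5/fne, elav5 and Canton-S (mean ± SD, n = 3 each), and also passed none. Summed over all complex II members the level was 351, 364 and 408 in elav5/fne and 550.5, 469.8 and 552 in elav5, against 509, 490.1 and 499.9 in Canton-S, so elav5/fne was below both other genotypes without overlap, at 0.749 times the Canton-S mean.

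**Figure D4:**
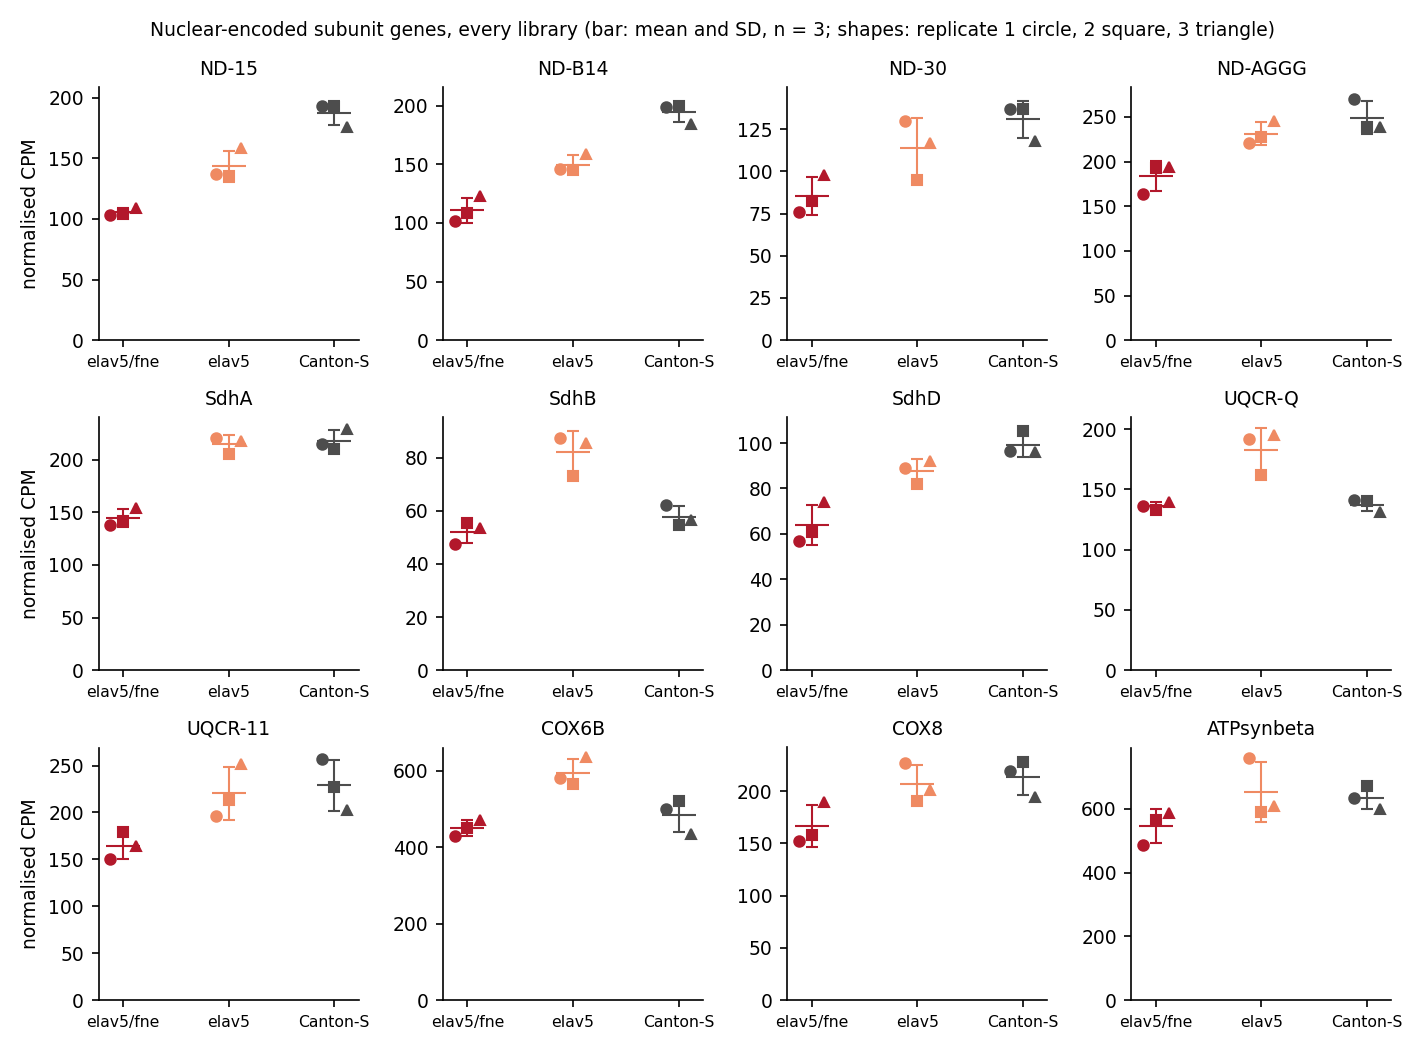
Level (normalised CPM, vertical axes from 0) of 12 nuclear-encoded subunit genes of complexes I to V in every library, with elav5/fne, elav5 and Canton-S from left to right in each panel. Points are single libraries (circle, square and triangle for replicates 1, 2 and 3) and bars are the mean and SD (n = 3); ND-15 and ND-B14 step up from elav5/fne over elav5 to Canton-S, SdhA is low in elav5/fne alone among these genotypes, and SdhB and UQCR-Q are highest in elav5.

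Complex III had 6 nuclear subunits tested. All 6 were negative in elav5/fne against Canton-S, with a median of -0.21. Beside 17.5% of all genes tested, 1 of the 6 (16.7%) was called lower. This was UQCR-11, with 149.96, 179 and 165 normalised CPM in elav5/fne and 197, 213 and 251 in elav5, against 256, 227 and 203 in Canton-S. The elav5/fne libraries were all below Canton-S (log2 fold change -0.47, SE 0.13, limma adjusted p = 0.0135). The call was lost without Canton-S library 1 (log2 -0.39, limma adjusted p = 0.0569), and with the muscle marker level as a covariate (log2 -0.37, limma adjusted p = 0.122). UQCR-Q, like SdhB, was highest in elav5, with 136, 133 and 139.6 in elav5/fne and 191, 162 and 195 in elav5, against 141, 140.0 and 131 in Canton-S. Every elav5 library was above the other 6. Its call in elav5 against Canton-S (log2 fold change 0.41, SE 0.10, limma adjusted p = 0.0210) was lost without elav5 library 1, or Canton-S library 1, 2 or 3 (log2 0.37 to 0.42, limma adjusted p = 0.0602 to 0.0681). The core subunits UQCR-C1 and UQCR-C2 passed no test: UQCR-C1 stood at 303 ± 44.8, 324 ± 14.3 and 322 ± 7.32 and UQCR-C2 at 179.7 ± 33.8, 186 ± 16.9 and 205 ± 17.5 in elav5/fne, elav5 and Canton-S (mean ± SD, n = 3 each). UQCR-14 and UQCR-6.4 had log2 fold changes of -0.27 and -0.22 in elav5/fne against Canton-S (limma adjusted p = 0.0671 and 0.167).

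Complex IV, which reduces oxygen, had 8 nuclear subunits tested, all negative in elav5/fne against Canton-S with a median of -0.18 and a range of -0.36 to -0.11. Only COX8 of these 8 (12.5%) was called lower, beside 17.5% of all genes tested. It had 153, 158 and 189.8 normalised CPM in elav5/fne and 227, 191 and 201 in elav5, against 219, 228 and 194 in Canton-S. Its elav5/fne libraries lay just below Canton-S (log2 fold change -0.36, SE 0.12, limma adjusted p = 0.0301), and the call was lost without elav5/fne library 1 or 2, or Canton-S library 1 or 2 (log2 -0.34 to -0.30, limma adjusted p = 0.0879 to 0.101). COX4, the nuclear subunit gene of this complex with the highest mean, had 487, 569 and 644 in elav5/fne and 673, 614 and 667 in elav5, against 627, 670.0 and 588 in Canton-S, which overlapped (log2 fold change -0.16, SE 0.11, limma adjusted p = 0.277). COX6B had 429, 449 and 471 in elav5/fne and 582, 565 and 636 in elav5, against 499, 522 and 435 in Canton-S. All elav5 libraries were above the rest, but the difference in elav5 against Canton-S missed the threshold (log2 fold change 0.29, SE 0.09, limma adjusted p = 0.0664). COX5B, COX7B and COX7C had log2 fold changes of -0.20, -0.21 and -0.20 in elav5/fne against Canton-S and passed no test there. None of the 8 was called in elav5 against Canton-S by limma or edgeR, where 1 was higher by DESeq2 and at an unadjusted p under 0.05.

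Complex V had 11 nuclear subunits tested, and none was called in any comparison by limma or edgeR. At an unadjusted p under 0.05, 3 were lower in elav5/fne against Canton-S, 0 in elav5 against Canton-S and 1 in elav5/fne against elav5, and DESeq2 called 2, 0 and 1 lower in the same order. Against Canton-S, 9 were negative in elav5/fne and 2 positive, with a median of -0.16 and a range of -0.35 to 0.08. ATPsynC, which forms the rotating ring in the membrane, had 783, 879 and 928 normalised CPM in elav5/fne and 1129, 817 and 1059 in elav5, against 1198, 1013 and 1081 in Canton-S. Its elav5/fne libraries were all below Canton-S, and the difference missed the threshold (log2 fold change -0.35, SE 0.13, limma adjusted p = 0.0586). ATPsynbeta, the catalytic subunit, had 485, 565 and 587 in elav5/fne and 759.7, 589.8 and 609 in elav5, against 635, 671 and 599 in Canton-S (log2 fold change -0.22, SE 0.12, limma adjusted p = 0.158). ATPsynD and ATPsynO, of the peripheral stalk of the enzyme, had log2 fold changes of -0.26 and -0.26 in elav5/fne (limma adjusted p = 0.0668 and 0.0856). ATPsynG and ATPsynCF6 stood at -0.13 and 0.01. Beside the log2 fold change of 1.21 of mt:ATPase6, the highest nuclear subunit of the same enzyme, ATPsyndelta, picked for its value, stood at 0.08 (limma adjusted p = 0.723).

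The paralogs ending in L were nearly silent in these libraries. Of the 24, 20 were below the filter, and 3 of those, ND-24L, ND-49L and COX6CL, had no read in any library. Many such duplicates of respiratory chain genes are known for expression in the fly testis, and a list of male germline genes summed to 32.8 to 43.2 normalised CPM in elav5/fne, 9.73 to 11.3 in elav5 and 4.37 to 4.88 in Canton-S, with its marker aly at 0. Of the 5 germline genes found, only 2 were tested. Of these, 1 was called higher in elav5/fne against Canton-S, and between the mutants 1 was higher and 1 lower. The sum thus does not stand for the list as a whole, and its part in the paralogs' values was not tested. Of the 4 paralogs tested, ATPsynCF6L was called lower in elav5/fne, with 0.556, 0.215 and 0.507 in elav5/fne and 1.42, 3.13 and 2.42 in elav5, against 2.50, 3.57 and 2.70 in Canton-S. The call held without each single library (log2 fold change -1.46, SE 0.30, limma adjusted p = 0.00330). ATPsynCF6L (chromosome 3L, 5011444 to 5012133, minus strand) overlaps Con, a cell adhesion gene on the same strand, which was lower as well (log2 -0.56, limma adjusted p = 0.0136), and the files do not show from which of the pair its few reads came. SdhAL stood at 0.693 ± 0.276, 1.54 ± 0.655 and 1.28 ± 0.700 in elav5/fne, elav5 and Canton-S (mean ± SD, n = 3 each). UQCR-11L and ATPsynepsilonL passed no test either.

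The direct comparison of the mutants sets the loss of both genes beside the loss of elav alone. It called 20 members lower: 16 nuclear subunits, 3 mitochondrially encoded genes and ATPsynCF6L. Of complex I, 8 of 32 nuclear subunits were lower, of complex II 3 of 4, of complex III 3 of 6, of complex IV 2 of 8 and of complex V 0 of 11. Over all genes tested 12.3% were lower in this comparison. The largest falls among the nuclear subunits were those of SdhB (log2 fold change -0.65, SE 0.11, limma adjusted p = 0.00236) and SdhA (log2 fold change -0.57, SE 0.08, limma adjusted p = 0.000840). SdhD stood at log2 fold change -0.46, SE 0.12, limma adjusted p = 0.0147. The calls of SdhA and SdhB held without each single library, and that of SdhD was lost without elav5/fne library 1 or 2 (log2 -0.43 to -0.38, limma adjusted p = 0.0544 to 0.0557).

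For 13 of the 20 genes the elav5 mean was above that of Canton-S. ND-MLRQ had 211, 232 and 219 normalised CPM in elav5/fne against 324, 271 and 332 in elav5 (log2 fold change -0.48, SE 0.10, limma adjusted p = 0.00711), where the groups did not overlap. COX6B and UQCR-Q, with values given above, were lower by the same test (log2 -0.40, limma adjusted p = 0.0107 and log2 -0.42, limma adjusted p = 0.00898). ND-13B, outside the naming rule, stood at 57.0 ± 4.10 in elav5/fne against 78.4 ± 7.64 in elav5 (mean ± SD, n = 3 each; log2 -0.45, limma adjusted p = 0.0102). These 4 calls held without each single library.

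Other calls of this comparison rested on single libraries. That of UQCR-11 (log2 -0.42, limma adjusted p = 0.0323) was lost without elav5/fne library 1 or 3, elav5 library 2 or 3, or Canton-S library 2 (log2 -0.44 to -0.32, limma adjusted p = 0.0510 to 0.106). UQCR-14 (log2 -0.38, limma adjusted p = 0.0256) was lost without elav5/fne library 1 or 2, or elav5 library 1 or 3 (log2 -0.37 to -0.32, limma adjusted p = 0.0602 to 0.0901), and COX5B (log2 -0.37, limma adjusted p = 0.0292) without elav5/fne library 1 or 2, or elav5 library 1 or 3 (log2 -0.39 to -0.27, limma adjusted p = 0.0619 to 0.0966). ND-AGGG (log2 -0.33, limma adjusted p = 0.0303) was lost without elav5/fne library 1 or 2, or elav5 library 2 or 3 (log2 -0.37 to -0.26, limma adjusted p = 0.0524 to 0.107). Of the genes outside the naming rule, ND-MWFE (log2 -0.46, limma adjusted p = 0.0214) was lost without elav5/fne library 1, or elav5 library 3 (log2 -0.42 to -0.36, limma adjusted p = 0.0608 to 0.0758), and ND-B15 (log2 -0.47, limma adjusted p = 0.0432) without elav5/fne library 1 or 2, elav5 library 1, 2 or 3, or Canton-S library 2 (log2 -0.52 to -0.37, limma adjusted p = 0.0587 to 0.149). ND-B14.5B (log2 -0.36, limma adjusted p = 0.0410) was lost without elav5/fne library 1 or 2, elav5 library 1 or 3, or Canton-S library 1, 2 or 3 (log2 -0.36 to -0.28, limma adjusted p = 0.0595 to 0.137). ATPsynCF6L (log2 -1.19, limma adjusted p = 0.0136) was lost without elav5/fne library 2, or elav5 library 2 (log2 -1.08 to -1.02, limma adjusted p = 0.0511 to 0.0515).

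All 3 mitochondrially encoded subunits of complex IV were lower in elav5/fne than in elav5, the reverse of mt:ATPase6. The values were log2 fold change -0.45, SE 0.11, limma adjusted p = 0.0112, for mt:CoI, log2 fold change -0.36, SE 0.10, limma adjusted p = 0.0208, for mt:CoII, and log2 fold change -0.56, SE 0.19, limma adjusted p = 0.0465, for mt:CoIII. The call of mt:CoI held without each single library. That of mt:CoII was lost without elav5/fne library 1, 2 or 3, or elav5 library 1 (log2 -0.38 to -0.33, limma adjusted p = 0.0502 to 0.0675). That of mt:CoIII was lost without elav5/fne library 1, 2 or 3, elav5 library 1 or 3, or Canton-S library 2 or 3 (log2 -0.64 to -0.40, limma adjusted p = 0.0565 to 0.134). The 7 mitochondrially encoded subunits of complex I were all negative in this comparison, with a median of -0.44, and none was called by limma or edgeR, with 2 lower at an unadjusted p under 0.05 and 3 lower by DESeq2. mt:ND3 was nearest to the threshold (log2 fold change -1.10, SE 0.38, limma adjusted p = 0.0507).

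Muscle markers moved within both mutants, and muscle is rich in the products of these genes. In elav5/fne the nuclear members summed highest, at 11763 normalised CPM, in library 3, where the muscle list summed to 9985. In elav5 they summed to 13395 in library 1, where the muscle list summed to 8895, and to 13223 in library 3, where it summed to 1404. With elav5/fne library 3 and elav5 library 1 both left out, 22 members were lower and 4 higher in elav5/fne against Canton-S, and with the muscle marker level as a covariate 16 were lower and 3 higher. The median of the 61 nuclear subunits was -0.26 without these libraries and -0.30 with the covariate. elav5/fne libraries 1 and 2, kept in the former fit, had muscle sums of 2689.7 and 5414, above the 1522 to 1698 of Canton-S. The part of the low neuron markers and the raised neuroblast markers in the results was not tested.

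Genes that serve the chain without carrying the prefixes were grouped into lists by their known roles. In elav5/fne against Canton-S, the count of each list stands beside 25.8% of all genes tested called higher and 17.5% called lower. Of 8 tested subunits of the 5 complexes with other names, 2 were called in elav5/fne against Canton-S, both lower, with a median of -0.18 over the 8. They were Cyt-c1, the subunit of complex III that hands electrons to cytochrome c, with 187, 222 and 285 normalised CPM in elav5/fne and 315, 254 and 278 in elav5, against 323, 352 and 343 in Canton-S (log2 -0.57, limma adjusted p = 0.0116 in elav5/fne), and ox, a small subunit of complex III, with 187, 206 and 220.0 in elav5/fne and 318, 259 and 313 in elav5, against 288, 277 and 246 in Canton-S (log2 -0.40, limma adjusted p = 0.0164). The call of ox was lost without elav5/fne library 1, or Canton-S library 1 or 2 (log2 -0.38 to -0.34, limma adjusted p = 0.0544 to 0.0639). The next by p-value was levy, a subunit of complex IV (log2 -0.27, limma adjusted p = 0.0604). ox was also lower in elav5/fne than in elav5 (log2 -0.53, limma adjusted p = 0.00592).

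Of 14 tested assembly factors 4 (28.6%) were called in elav5/fne against Canton-S, all lower, beside 17.5% of all genes tested. They included OXA1L, which inserts proteins into the inner membrane (5.15 ± 1.12 in elav5/fne against 12.5 ± 2.13 in Canton-S, mean ± SD, n = 3 each; log2 -1.13, limma adjusted p = 0.00541), Cox10, needed to make the heme of complex IV (log2 -0.65, limma adjusted p = 0.00852), and AIF, a flavoprotein of the inner membrane (log2 -0.67, limma adjusted p = 0.0398). The AIF call was lost without elav5/fne library 2 or 3, or Canton-S library 1 or 2 (log2 -0.65 to -0.50, limma adjusted p = 0.0938 to 0.143). Of 14 tested genes of the citric acid cycle and pyruvate dehydrogenase 5 (35.7%) were called, all lower, beside 17.5% of all genes tested. Idh3b and Idh3g, which code for subunits of the NAD-dependent isocitrate dehydrogenase, had log2 fold changes of -0.79 and -0.81 (limma adjusted p = 0.000526 and 0.000260), and kdn, citrate synthase, -0.57 (limma adjusted p = 0.00748). Idh3g had 51.2, 56.4 and 49.2 normalised CPM in elav5/fne and 43.0, 36.9 and 41.3 in elav5, against 86.5, 92.5 and 97.4 in Canton-S, so it was lowest in elav5. It was the 1 gene of this list called in elav5 by limma and by edgeR (log2 -1.17, limma adjusted p = 0.000257). DESeq2 called 3 of the list lower there.

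Of 5 tested carriers of electrons into the chain limma called 2 (40.0%) in elav5/fne against Canton-S, both higher, beside 25.8% of all genes tested. edgeR and DESeq2 called 2 higher and 1 lower. wal, the alpha subunit of the electron transfer flavoprotein, had 191, 202 and 211 normalised CPM in elav5/fne and 117, 85.5 and 89.5 in elav5, against 82.3, 89.2 and 78.2 in Canton-S (log2 1.27, limma adjusted p = 4.84e-05), with elav5/fne above both. Dhod, dihydroorotate dehydrogenase, was the other (log2 0.53, limma adjusted p = 0.0218), a call lost without elav5/fne library 1, 2 or 3, or Canton-S library 1 or 3 (log2 0.40 to 0.55, limma adjusted p = 0.0517 to 0.0782). Cyt-c-d, a cytochrome c gene, was low and missed limma's threshold (log2 -0.90, limma adjusted p = 0.0534), but was called lower by edgeR (adjusted p = 0.0455) and by DESeq2 (adjusted p = 0.0344). Of 7 tested carriers of ADP, ATP and phosphate and porins, porin, the channel of the outer membrane, was lower, with 828, 904 and 1000.0 in elav5/fne and 1346, 1264 and 1626 in elav5, against 1745, 1734 and 1640.3 in Canton-S (log2 -0.91, limma adjusted p = 0.000175). Mpcp1, a phosphate carrier, was higher (log2 2.37, limma adjusted p = 0.0228), but its highest values, 19.4 in elav5/fne library 3 and 19.9 in elav5 library 1, fell in the libraries high in muscle markers, and with the muscle level as a covariate it stood at log2 0.56, limma adjusted p = 0.390. Its call was also lost without elav5/fne library 2 or 3, or Canton-S library 1 or 3 (log2 1.97 to 2.46, limma adjusted p = 0.0509 to 0.0738). Ant2, the next by p-value, did not pass (log2 -0.54, limma adjusted p = 0.180).

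Further lists hold genes that act on mitochondrial DNA and RNA or on the expression of respiratory genes. For these too the counts stand beside 25.8% of all genes tested called higher and 17.5% called lower in elav5/fne against Canton-S. Of 10 tested genes of mitochondrial DNA maintenance and transcription 1, Top3alpha, a topoisomerase, was higher in elav5/fne against Canton-S (log2 0.91, limma adjusted p = 0.0453), and its call was lost without elav5/fne library 1, 2 or 3, or Canton-S library 1 or 3 (log2 0.77 to 0.95, limma adjusted p = 0.0782 to 0.134). mTTF and mtTFB2, transcription factors of mitochondria, did not pass (log2 -0.46, limma adjusted p = 0.0645 and log2 -0.48, limma adjusted p = 0.110). Of 8 tested genes of mitochondrial RNA processing and stability 2 were lower. They were bsf, which binds and stabilises mitochondrial RNA, with 28.9, 33.1 and 49.9 normalised CPM in elav5/fne and 54.6, 43.7 and 32.1 in elav5, against 55.4, 73.9 and 69.1 in Canton-S (log2 -0.84, limma adjusted p = 0.0178), and rswl, a mitochondrial ribonuclease P subunit (log2 -0.76, limma adjusted p = 0.0173). The call of bsf was lost without elav5/fne library 1 or 2, or Canton-S library 2 or 3 (log2 -0.80 to -0.68, limma adjusted p = 0.0567 to 0.0665), and that of rswl without elav5/fne library 1, or Canton-S library 2 (log2 -0.66 to -0.56, limma adjusted p = 0.0570 to 0.0672). scu, another subunit of that enzyme, did not pass (log2 0.41, limma adjusted p = 0.0931).

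Of 9 tested regulators 3 were higher and 1 lower in elav5/fne against Canton-S, beside 25.8% and 17.5% of all genes tested. ewg, a transcription factor of neurons related to mammalian NRF1, had 746, 686 and 633 normalised CPM in elav5/fne and 140.4, 182 and 139 in elav5, against 119, 91.4 and 102 in Canton-S, without overlap between the 3 genotypes (log2 fold change 2.72, SE 0.14, limma adjusted p = 1.17e-06). ewg is a known target of ELAV in splicing and 3' end choice, and these values count all of its 3' ends together. Thor, the translation inhibitor 4E-BP, had 1466, 1082 and 1285 in elav5/fne and 436, 429.9 and 490.1 in elav5, against 125, 203 and 572 in Canton-S (log2 2.37, limma adjusted p = 0.00179), where Canton-S library 3 stood apart from its group. clu, which codes for a cytoplasmic RNA-binding protein needed for mitochondrial function, was lower (log2 -0.92, limma adjusted p = 0.00246). Both mitochondrial ribosomal RNAs missed limma's threshold in either mutant against Canton-S, with mt:srRNA at log2 0.22, limma adjusted p = 0.555 in elav5/fne and log2 0.75, limma adjusted p = 0.110 in elav5. DESeq2 called mt:lrRNA higher in elav5 (adjusted p = 0.0271). Without elav5 library 2 limma called both higher in elav5 (adjusted p = 0.0297 for mt:lrRNA and 0.0339 for mt:srRNA). mt:lrRNA was lower in elav5/fne than in elav5 (log2 -1.02, limma adjusted p = 0.0430), a call lost without elav5/fne library 1 or 3, elav5 library 1 or 3, or Canton-S library 2 or 3 (log2 -1.05 to -0.70, limma adjusted p = 0.0592 to 0.122).

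Over all 9 lists 76 genes were tested, of which limma called 7 higher and 15 lower in elav5/fne against Canton-S, 1 higher and 2 lower in elav5 against Canton-S, and 11 higher and 6 lower in elav5/fne against elav5. These are 28.9%, 3.95% and 22.4% of the 76, beside 43.2%, 15.2% and 30.8% of all genes tested. By direction, all genes tested had 25.8% higher and 17.5% lower, 8.17% and 7.04%, and 18.5% and 12.3% in the same order. The calls in elav5 against Canton-S included Idh3g and ewg (log2 0.55, limma adjusted p = 0.0255). The ewg call in elav5 was lost without elav5 library 2, or Canton-S library 2 or 3 (log2 0.43 to 0.55, limma adjusted p = 0.0616 to 0.0948). Between the mutants the regulators held 5 higher and 1 lower of 9, beside 18.5% and 12.3% of all genes tested. The Thor call there was lost without elav5/fne library 1, 2 or 3, or elav5 library 2 or 3 (log2 1.38 to 1.60, limma adjusted p = 0.0520 to 0.0794). That of clu, the lower one, was lost without elav5/fne library 1 or 2, or elav5 library 1 or 2 (log2 -0.56 to -0.48, limma adjusted p = 0.0898 to 0.111). Among the lower genes of the lists were porin and Idh3b (log2 -0.63, limma adjusted p = 0.00250 and log2 -0.54, limma adjusted p = 0.00686).

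Of the 31 members called in any comparison, 18 overlap another annotated gene, 10 of them on the same strand, against 43 and 16 of the 79 tested. The labels do not say whether counting used strand or how it treated overlaps. Reads of such genes may thus include those of a neighbour, or may have been left out. ND-MNLL, which CG45089 overlaps on the same strand, had no read in any library, and whether its reads were left out was not tested. Because 1 value per gene was deposited, a change of 3' end within a gene cannot be seen in these levels.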

How the data were processed

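Reads from 3' end sequencing of 9 L1 CNS libraries, 3 per genotype, were processed by the authors, with genome build dm6 per the submitters' processing notes. The labels name no aligner, counter, annotation or strand setting. The deposited table holds 1 signal value per gene and library, and its values are whole reads divided by 1 factor per library, as read from the values, since the labels do not describe the authors' scaling. Unscaled counts were recovered from the deposited steps: 100% of values were whole reads within a tolerance of 0.1. Gene identifiers were paired with symbols for 17250 of 17421 genes.

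The main test was limma 3.58.1 (trend, all 9 libraries in 1 fit) on log2(normalised CPM + 1) where a gene's mean reached 1, with Benjamini-Hochberg adjustment over 9384 genes. It was also run on simulated reads in which far fewer genes changed than were called here. That run does not show how the test performs on these data. The table was planned for as CPM and turned out to be size-factor-scaled reads, for which the same test was kept. edgeR 4.0.16 and DESeq2 1.42.0 on recovered reads, 4 other scalings, 2 other pseudocounts, 2 other filters, a replicate block, a muscle covariate and fits without libraries were the alternatives. R 4.3.3 and Python 3.11.15 were used. Library depth limits low genes: 3 reads equal 0.150 to 0.196 normalised CPM, a floor for counting error only.

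Genes were named by rule. All mitochondrially encoded members and all tested nuclear members of complex II were named, and of each other complex the nuclear members with the 4 smallest p-values against Canton-S in elav5/fne, the 3 smallest in elav5, the 2 smallest in elav5/fne against elav5 and the 2 highest means, with up to 3 genes of each list. Exceptions are stated. The members and lists were chosen with earlier results of these data known. Promoter motifs were not searched. Same-numbered libraries did not deviate together, so replicate numbers were not used as pairs.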

Additional observations from a re-analysis of the deposited data

How the results depend on the processing

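None of the checked results changed sign while called. The calls of mt:ATPase6, ND-15, ND-B14, SdhA and SdhD in elav5/fne against Canton-S held under all 22 other settings. Of 79 members, 12 were lower in elav5/fne against Canton-S, a count of 31 under TMM, 27 under median of ratios, 20 under the library total, 20 under the total of nuclear genes, 19 with DESeq2, 22 with elav5/fne library 3 and elav5 library 1 left out, and 8 to 20 with 1 library left out. The 4 called higher became 1 with a filter of mean 10, where mt:ND3, mt:ND6 and mt:ATPase8, with means below it, were not tested, and 2 to 5 with 1 library left out. For elav5 against Canton-S, the 8 called higher became 4 under the library total, 13 with DESeq2, 3 with both libraries left out and 2 to 11 with 1 left out, and the 2 called lower became 0 with both left out, 1 with the muscle covariate and 0 to 2 with 1 left out. Between the mutants, the 20 called lower became 37 under TMM, 38 under median of ratios, 12 under the library total, 31 with DESeq2 and 10 to 28 with 1 left out. For the summed level of the nuclear-encoded members, Canton-S averaged 12405 normalised CPM, and 13099 under the library total. On recovered reads, edgeR called 3949, 1390 and 2561 of all genes in elav5/fne against Canton-S, elav5 against Canton-S and elav5/fne against elav5, where limma called 4056, 1428 and 2888. The cause of these moves was not tested unless stated.

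Replicate numbers of the labels were not used to pair the libraries: deviations from the group means correlated at -0.70 to 0.20 over 9 same-numbered pairs and -0.57 to 0.67 over 18 others. These deviations include the differences in muscle and midgut markers between libraries, so they cannot decide whether the numbers stand for shared batches. With a replicate block the calls against Canton-S were 3 higher and 11 lower in elav5/fne and 2 higher and 0 lower in elav5, and in elav5/fne against elav5 1 was higher and 12 lower.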
